A study of Mus musculus with 8 samples.

Results

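The genes described here are 10 transcripts of the vascular endothelium, the cells that line blood vessels, in the whole retina of Lpcat1 wildtype (WT) and Lpcat1 knockout (KO) mice. They are Myct1, Vcam1, Icam1, Pecam1, Cdh5, Kdr, Flt1, Cldn5, Tie1 and Emcn. The set was chosen by the KO against WT levels of these same arrays, in which Myct1 and Vcam1 were lower in Lpcat1 KO while inflammatory genes were higher, so the KO against WT differences of the members are given as a description with no p-value. The members were found by matching the transcript named for each probe to the gene symbol, which gave 13 of the 55681 non-control probes on the array. All 10 genes had a probe. Myct1, Vcam1 and Kdr had 2 probes each and the other 7 genes had 1.

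Gene expression was measured in total RNA of the whole retina at 2 weeks of age, with 1 single-colour Agilent array for each of 4 WT and 4 KO samples. All mice carry the strain label C57BL/6. The KO removes Lpcat1, the enzyme that makes saturated phosphatidylcholine, and is restricted neither to vessels nor to the retina. The line came from a C57BL6/N background, was crossed with C57BL6/J to remove the rd8 mutation of Crb1, and animals homozygous for rd8 were not used. The labels name no treatment for either genotype, and the number of animals behind each sample is not stated, so the spread between samples may be partly technical.

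The retinal vasculature spreads over the inner retina after birth under the control of vascular endothelial growth factor (VEGF), which signals through Kdr and is bound by Flt1, and its endothelium forms the inner blood-retina barrier through tight junctions that contain Cldn5. Inflammatory signals acting through NF-kB induce Vcam1 and Icam1 on endothelium, and these adhesion molecules hold leukocytes through their integrins. Several of these transcripts, Vcam1, Kdr and Flt1 among them, are also made outside endothelium. In whole-tissue RNA, fewer endothelial cells and less RNA of a gene per cell cannot be told apart.

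A level is the log2 signal of a probe minus the 75th percentile of its own array, and a difference is the mean KO level minus the mean WT level. Probes differ in how brightly they report the same amount of RNA, so no gene's level is ranked against another's. Signals at the 75th percentile were 638 to 738, between 33113 and 36373 probes per array were well above background, and 0 spots were saturated. Slide row 1 held the WT arrays and row 2 the KO arrays, so slide row and genotype cannot be told apart. The replicate number was also the slide column, so each column held 1 WT and 1 KO array. The single Lpcat1 probe differed by -0.46 (SE 0.04, limma adjusted p = 0.00368), to 72.5% of the WT signal, with no overlap between genotypes. Its place relative to the deletion was not examined here.

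Endothelial transcripts were readily measured in these retinas. Of the 13 member probes, 11 were well above background on all 8 arrays, which fits the tissue label, since Pecam1, Cdh5, Cldn5, Tie1 and Emcn were among them. Testing required a signal well above background in all 4 samples of 1 genotype or both, and 12 of the 13 probes, for 9 of the 10 genes, met this. Icam1 did not. Probes with a fold change over 1.2 and an adjusted p under 0.05 are referred to as called. There were 4 such probes among the 12 tested member probes (33.3%), 3 lower and 1 higher in KO, against 2.92% of the 33972 probes tested on the array (1.54% lower and 1.38% higher). Nothing is read from that contrast, because the differences of Myct1 and Vcam1 chose the set and 3 of the 4 called probes belong to them.

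The members did not move as 1 block. The called probes were Myct1 (1 of its 2 probes) and Vcam1 (both), lower in KO, and Flt1, higher in KO. Pecam1, Cldn5, Tie1 and the other Myct1 probe lay lower in every KO sample than in every WT sample by amounts that were not called. Kdr and Emcn overlapped between genotypes. Among the 11 probes well above background on all 8 arrays, differences ran from -0.66 for a dim Vcam1 probe to 0.31 for Flt1. The other tested probe, the dim Myct1 probe, was below that limit on 3 of the 4 KO arrays. The differences had a median of -0.17 over the 12 tested member probes and -0.04 over all tested probes. Below 0 were 11 of the 12 member probes, against 62.0% of all tested probes. These counts include the 4 probes of Myct1 and Vcam1, whose differences chose the set. For the other 8 tested probes the median was -0.12, with 7 below 0 and 1 called.

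Upstream sequence was available for 7 of the 10 members in a RefSeq table of the GRCm38.p6 build, and Vcam1, Pecam1 and Cdh5 were not in it. The 250 bases before the transcript start are printed for 4 members. The regions of genes with lower values (Myct1, Tie1 and Cldn5) and of the gene that was higher (Flt1) can so be read side by side. Of the lower genes only Myct1 had a called probe, the dim one, and its bright probe differed by about as much as Cldn5. Capitals mark GGAAG or its reverse complement CTTCC. These letters hold the shorter core GGAA bound by ETS transcription factors, a family active in endothelium. Other matches to GGAA are left in small letters and were not counted.
Myct1, chr10:5593478-5593727, plus strand: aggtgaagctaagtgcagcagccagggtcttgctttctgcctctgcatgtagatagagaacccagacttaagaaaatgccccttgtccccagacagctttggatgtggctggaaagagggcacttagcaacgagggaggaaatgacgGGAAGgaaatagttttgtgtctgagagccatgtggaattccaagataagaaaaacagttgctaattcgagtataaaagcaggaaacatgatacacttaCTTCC
Tie1, chr4:118489850-118490099, minus strand: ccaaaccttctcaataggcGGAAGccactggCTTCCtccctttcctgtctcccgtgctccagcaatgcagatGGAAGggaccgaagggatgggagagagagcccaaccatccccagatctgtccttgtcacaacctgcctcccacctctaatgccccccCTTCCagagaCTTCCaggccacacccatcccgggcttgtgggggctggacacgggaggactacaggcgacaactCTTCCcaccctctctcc
Cldn5, chr16:18776597-18776846, plus strand: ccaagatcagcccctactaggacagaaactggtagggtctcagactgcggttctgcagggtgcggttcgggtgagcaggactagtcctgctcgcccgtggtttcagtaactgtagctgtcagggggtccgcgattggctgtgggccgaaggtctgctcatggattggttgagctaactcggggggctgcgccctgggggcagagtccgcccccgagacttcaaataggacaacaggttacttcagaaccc
Flt1, chr5:147726012-147726261, minus strand: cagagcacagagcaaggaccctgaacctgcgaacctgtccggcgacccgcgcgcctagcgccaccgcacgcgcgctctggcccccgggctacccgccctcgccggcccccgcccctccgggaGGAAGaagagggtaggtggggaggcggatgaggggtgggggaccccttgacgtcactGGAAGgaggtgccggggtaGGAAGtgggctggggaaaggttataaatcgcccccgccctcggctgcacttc
On either strand GGAAG was found 2 times upstream of Myct1, 6 times upstream of Tie1, 0 times upstream of Cldn5 and 3 times upstream of Flt1. Emcn held 2 matches, and Icam1 and Kdr held 1 each. The same letters occur in 64.1% of the 32851 upstream regions in the table, with a median of 1 match, so their presence is common. The letters ACGTG, a form of the core of hypoxia response elements, or their reverse complement, were found in none of the 7 member regions. They occur in 16.6% of all regions. The other form of that core, GCGTG, was not counted, and its reverse complement CACGC is present in the Flt1 region printed above. A match of letters is a description of the sequence and not a binding site, and the lack of one says only that these letters are not in this window.

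Myct1, a gene whose transcript is enriched in endothelial cells, was measured by a bright and a dim probe. With the dim probe (A_66_P122559) the levels were -4.20, -4.17, -4.17 and -4.26 in WT replicates 1 to 4 and -4.94, -5.28, -5.43 and -5.25 in KO replicates 1 to 4. Every KO value lay far below the WT values, and KO replicate 1 was the highest of the KO samples. The fitted difference was -1.02 (SE 0.09), with the probe well above background on only 1 of the 4 KO arrays, so its size is uncertain and no percentage of WT is given.

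This probe was close to the limit of the array. Its signal was 36.3 to 39.9 units in WT, well above background on all 4 arrays, and 14.8 to 21.3 units in KO, well above background only in replicate 1. With normexp background correction, in which 50 units are added to each corrected signal, the difference became -0.29. It entered the test through its WT signal alone, and was not tested when detection on all 8 arrays was required.

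The bright Myct1 probe (A_55_P2068125) gave a smaller difference. Its levels were -2.34, -2.50, -2.52 and -2.42 in WT and -2.53, -2.70, -2.67 and -2.57 in KO. The genotypes did not overlap, but the lowest WT sample and the highest KO sample lay next to each other. The difference was -0.17 (SE 0.06, 95% interval -0.31 to -0.04), or 88.7% of WT, and it was not called. Both probes lay lower in KO. With normexp correction the bright probe gave -0.14, against -0.29 for the dim probe. The 50 units added there exceed the signal of the dim probe in every sample, which shrinks its difference by construction, so how far the size of the Myct1 difference depends on the probe was not settled.

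**Figure D1:**
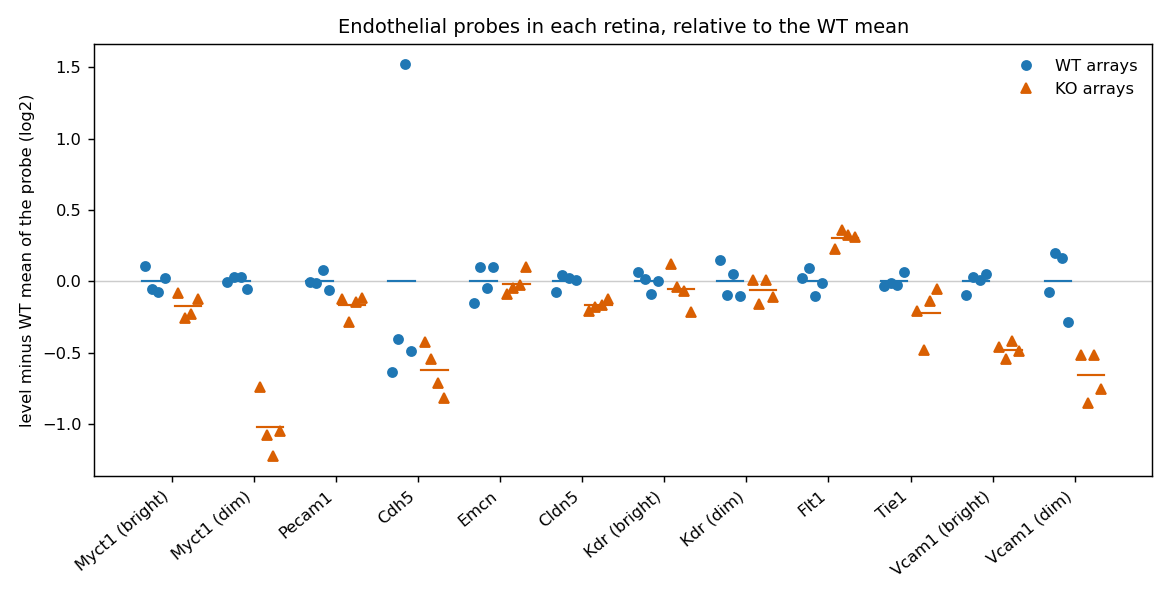
Level of each tested endothelial probe in each of the 8 retinas, on the log2 scale after subtracting the WT mean of the same probe. Circles are WT arrays, triangles KO arrays and short lines group means. The dim Myct1 probe and both Vcam1 probes lie below WT in all 4 KO samples, Flt1 lies above, and 1 WT point of Cdh5, replicate 3, stands far above the rest.

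Vcam1, the adhesion molecule that holds leukocytes carrying the integrin of Itga4 and Itgb1, was lower in Lpcat1 KO with both probes. The bright probe (A_51_P210956) read 1.76, 1.89, 1.87 and 1.91 in WT and 1.39, 1.31, 1.44 and 1.37 in KO. The 4 KO samples lay close together and well below the lowest WT sample. The difference was -0.48 (SE 0.05, 95% interval -0.59 to -0.37), or 71.7% of WT.

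The dim Vcam1 probe (A_52_P520495) read -3.08, -2.80, -2.84 and -3.29 in WT and -3.52, -3.85, -3.52 and -3.76 in KO. The genotypes again did not overlap, with a wider spread in both. The difference was -0.66 (SE 0.13, 95% interval -0.95 to -0.37), or 63.3% of WT. Normexp background correction reduced it to -0.24 and ended the call, as did testing without the filter on dim probes, the slide column as a block and the methods' t-test. Within slide columns 1 to 4 the difference was -0.44, -1.05, -0.68 and -0.47. The call was also lost when WT replicate 1, 2 or 3 or KO replicate 2, 3 or 4 was left out, with differences of -0.69, -0.59, -0.61, -0.60, -0.71 and -0.63 in that order.

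Icam1, the ligand of the leukocyte integrins that contain Itgb2, had no measurable level. None of the 8 arrays held a spot of its only probe that was well above background, and the signal ranged from 4.99 to 16.6 units in WT and from 7.55 to 14.4 units in KO. These ranges overlap and give no fold change. Whether Icam1 moved with Vcam1 was therefore not detectable here.

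**Figure D2:**
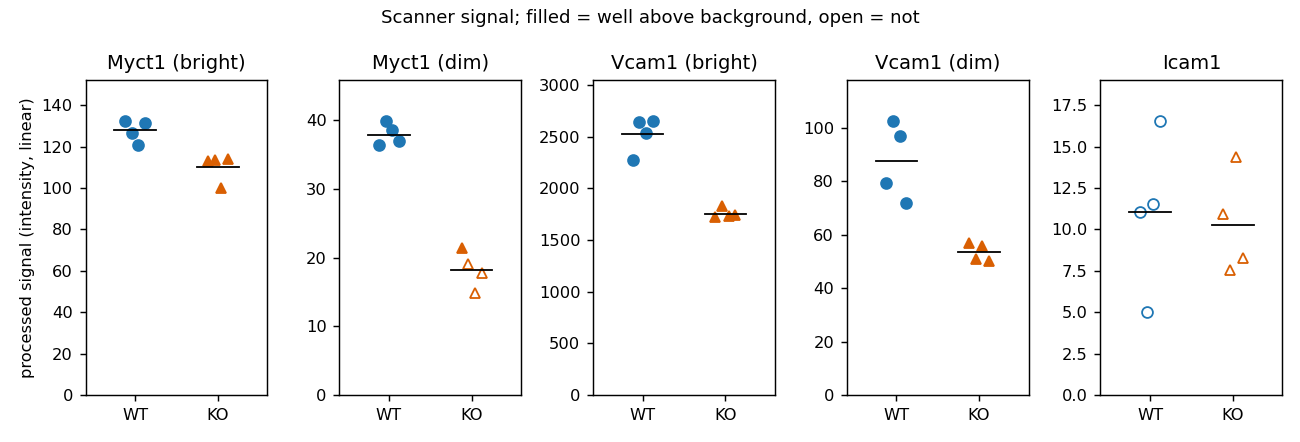
Processed scanner signal on a linear scale for the Myct1, Vcam1 and Icam1 probes in each of 4 WT and 4 KO samples, with a separate axis for each probe and a line at the group mean. Filled points are well above background and open points are not. The dim Myct1 probe passes the background limit in all 4 WT samples and in 1 KO sample, while Icam1 passes in none.

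Pecam1, a junction protein used as a general endothelial marker, read -1.0, -1.0, -0.91 and -1.05 in WT and -1.12, -1.27, -1.14 and -1.11 in KO. Its difference was -0.17 (SE 0.05, 95% interval -0.29 to -0.05). The KO samples all lay below WT, by less than the gap seen for Vcam1.

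Cldn5, the tight junction claudin of the blood-retina barrier, read 3.01, 3.13, 3.11 and 3.09 in WT and 2.87, 2.90, 2.92 and 2.96 in KO. The difference was -0.17 (SE 0.04, 95% interval -0.26 to -0.07), or 89.0% of WT. Again no KO sample reached the lowest WT sample. Tie1, an orphan receptor that modulates angiopoietin signalling, read -1.27, -1.25, -1.27 and -1.18 in WT and -1.45, -1.72, -1.38 and -1.30 in KO. Its difference was -0.22 (SE 0.09, 95% interval -0.42 to -0.02). KO replicate 2 was the lowest sample, and without it the Tie1 difference was -0.13.

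None of these 3 genes was called. Counting all members, 8 of the 12 tested probes had no overlap between genotypes (7 lower and 1 higher in KO), against 17.5% of all tested probes in either direction. The count includes the Myct1 and Vcam1 probes that chose the set.

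The receptors of VEGF differed from one another. Kdr, the main signalling receptor, read 3.24, 3.19, 3.08 and 3.17 in WT and 3.29, 3.13, 3.10 and 2.95 in KO with its bright probe (A_51_P316553). The ranges overlapped throughout, and the difference was -0.05 (95% interval -0.22 to 0.12). Its dim probe (A_55_P2094469) gave -0.06 (95% interval -0.23 to 0.10), with WT levels of 1.93 to 2.18 and KO levels of 1.87 to 2.05. These intervals leave room for a change of up to about -0.23, so a change as small as that of Pecam1 cannot be told from none.

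Flt1, which binds VEGF and limits its access to Kdr, moved the other way. Its levels were 2.17, 2.24, 2.05 and 2.14 in WT and 2.38, 2.51, 2.47 and 2.46 in KO. All 4 KO samples lay above all 4 WT samples. The difference was 0.31 (SE 0.05, 95% interval 0.19 to 0.43), or 124% of WT, and it was called, against 1.38% of all tested probes called higher in KO. The call was lost when WT replicate 1, 3 or 4 or KO replicate 2, 3 or 4 was left out, with differences of 0.31, 0.27, 0.30, 0.29, 0.30 and 0.30 in that order, so the value hardly moved while the adjusted p crossed its limit. Testing without the filter on dim probes and taking the slide column as a block also ended the Flt1 call, while the differences within columns 1 to 4 were 0.21, 0.27, 0.43 and 0.32.

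Emcn, a sialomucin of venous and capillary endothelium, read -2.47, -2.22, -2.36 and -2.21 in WT and -2.40, -2.36, -2.34 and -2.21 in KO. The 2 genotypes covered the same range. The difference was -0.02 (95% interval -0.18 to 0.15), and its sign turned to above 0 under a median shift, under the 75th percentile of detected probes and under cyclic loess, by at most 0.02.

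Cdh5, the cadherin of endothelial adherens junctions, was decided by 1 sample. It read -1.60, -1.37, 0.56 and -1.45 in WT and -1.39, -1.51, -1.68 and -1.78 in KO. WT replicate 3 lay 2.04 above the mean of the other WT samples, with a signal of 1023 units where the others gave 221 to 277. The difference over all samples was -0.63 (SE 0.45, 95% interval -1.65 to 0.40). Without WT replicate 3 it was -0.12 (SE 0.10), and the genotypes still overlapped.

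The Pecam1, Cldn5, Tie1 and Emcn levels of WT replicate 3 lay within 0.2 of those in the other WT samples. Of the 38 spots within 4 rows and columns of the Cdh5 spot that were detected on all arrays, the median stood 0.09 above the other WT samples. Only 1 of them exceeded 1, a spot in the same column 2 rows away that was 2.06 higher. Over the whole array 40 of 34510 such spots (0.116%) exceeded 1 in WT replicate 3. The Cdh5 spot carried no outlier mark from the scanner software, and the part of its position in the value was not tested.

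**Figure D3:**
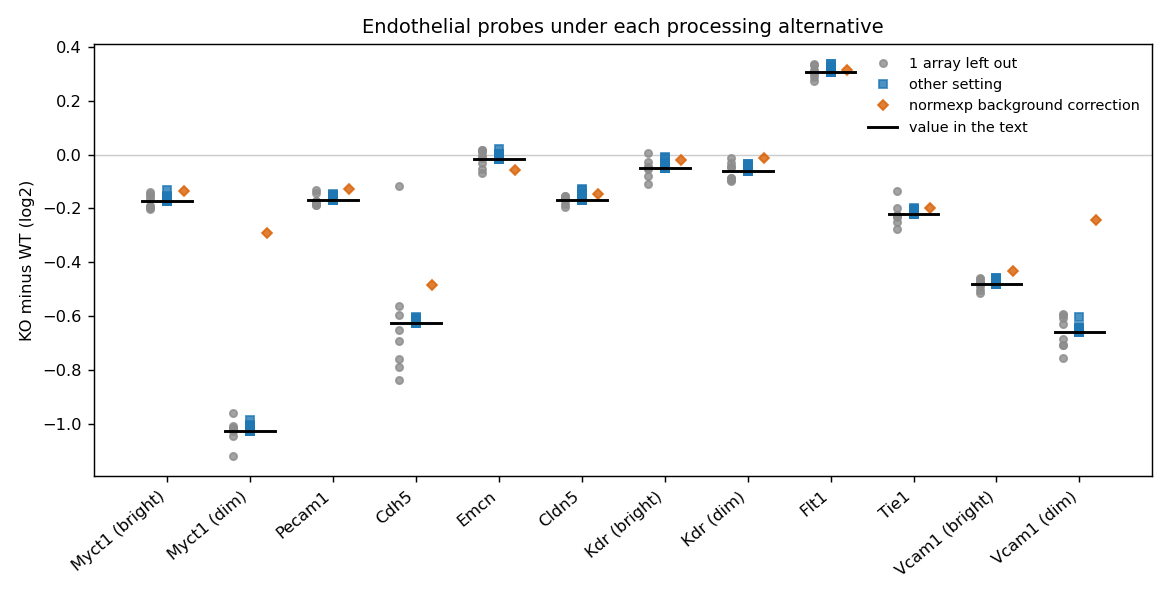
Difference between KO and WT (log2) of each tested endothelial probe under each processing alternative. Black lines are the values given in the text, grey points leave out 1 array, blue squares are other settings and orange diamonds are normexp background correction. The dim probes of Myct1 and Vcam1 shrink to -0.29 and -0.24 under normexp, and Cdh5 moves to -0.12 when WT replicate 3 is left out.

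How far the members varied together among retinas of 1 genotype was described after removing the genotype means. Over 36 pairs of the 9 tested genes and 8 arrays, the median Pearson's r was -0.05 and 17 pairs were above 0. Without Cdh5, 28 pairs had a median r of 0.05. Among Pecam1, Cldn5, Tie1 and Emcn, 5 of 6 pairs were above 0, from -0.07 for Pecam1 with Emcn to 0.86 for Cldn5 with Emcn, and Vcam1 with these 4 genes gave 0.29 to 0.57. Kdr lay below 0 with each of these 4 genes. The points share their arrays and scaling, so these values are a description of array-to-array variation.

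The genes whose deviations were most like the mean of Pecam1, Cdh5, Cldn5, Tie1 and Emcn over the 8 arrays were Jakmip1 (r = 0.98), Rad50 (0.97), Rad54b (0.97), Ccnq (0.96) and Zfp182 (0.96), out of 14930 genes. This likeness depended on Cdh5. Without WT replicate 3 the median r of these 5 genes was 0.70. With Cdh5 left out of the mean, r for these genes was 0.38, 0.27, 0.17, 0.25 and 0.12 in the same order. The genes that then came first were B4galt7 (0.97), Pax8 (0.97), 2310030G06Rik (0.97), Fbxo3 (0.96) and Fnbp1 (0.96), none of which was in the first 5 with Cdh5 included.

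The wider vascular programme was then read from 7 lists of 112 genes outside the members. Of these, 98 genes were tested, and 4 were called (4.08%), against 3.47% of the 14939 named genes tested. Higher in KO were 3 of the 4 and lower 1, where 1.99% of all named genes were called higher and 1.49% lower. The median difference over the 98 genes was 0.01, with 44 of them (44.9%) below 0, against a median of -0.02 and 57.9% below 0 for all named genes.

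Of 25 further endothelial identity genes, 23 were tested and none was called by limma, while 8 had an unadjusted p under 0.05. The share of all named genes under that unadjusted limit was not counted. Nothing is therefore read from this count or from the same counts given for other lists below. Their median difference was -0.05, with 15 below and 8 above 0. No overlap between genotypes was found for 6 of the 23, against 21.2% of all named genes tested. In every list with no call, the methods' t-test also called 0 genes. The angiopoietin receptor Tek, the partner of Tie1, differed by -0.11 (SE 0.05, limma adjusted p = 0.203). Of the 2 untested genes, Erg and Calcrl, no value is given.

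Of the 22 genes of VEGF, angiopoietin and Notch signalling, all were tested, 13 lay above 0 and 9 below, and the median was 0.04. The apelin receptor Aplnr, a receptor of sprouting and venous endothelium, was the only one called. It read -2.29, -2.05, -2.32 and -2.39 in WT and -2.63, -2.82, -2.67 and -2.87 in KO. All KO samples lay below all WT samples, with a difference of -0.48 (SE 0.09, limma adjusted p = 0.0242). Leaving out 1 array gave differences of -0.53 to -0.41, and only the runs without WT replicate 4 or KO replicate 1 kept the call, which also ended without the filter on dim probes and with the slide column as a block (limma adjusted p from 0.0297 to 0.07 over the 8 runs with 1 array left out).

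Among the ligands, Vegfa and Angpt2 overlapped between genotypes. Vegfa, the ligand of Kdr and Flt1, differed by 0.06 (SE 0.08, limma adjusted p = 0.729), and Angpt2, the endothelial antagonist of Tek, by -0.08 (SE 0.07, limma adjusted p = 0.556, -0.14 to -0.03 with 1 array left out). Flt4, a receptor of Vegfc, had the difference farthest from 0 in the list, at 0.51 (SE 0.13, limma adjusted p = 0.0636), higher in every KO sample than in any WT sample and not called. Its probe was well above background on 2 of the 4 WT arrays and all 4 KO arrays. Flt4 thus entered the test through its KO signal alone, and the size of its difference is uncertain. Vegfb, which binds Flt1, and Vegfc, which can bind Kdr, were read beside it, and these 3 genes were chosen after their values were seen. The Vegfb and Vegfc KO values all lay above WT, at 0.13 (SE 0.05, limma adjusted p = 0.136) and 0.17 (SE 0.05, limma adjusted p = 0.0722), and neither was called. Pgf, in the same list, overlapped between genotypes, at 0.04 (SE 0.09). In this list 5 of the 22 genes had no overlap in either direction, against 21.2% of all named genes tested. Nothing is therefore read from the lack of overlap of Flt4, Vegfb and Vegfc.

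Among 18 genes of the blood-retina barrier, all were tested and none was called by limma (3 at an unadjusted p under 0.05), with 13 above and 5 below 0 and a median of 0.03. The value of Cldn5, the member with the same role, was -0.17. Plvap, a protein of leaky fenestrated endothelium, differed by 0.25 (SE 0.04, limma adjusted p = 0.0234), which was under the minimum fold of 1.2, and its other probe by 0.02. With a median shift, the 75th percentile of detected probes or cyclic loess, or without KO replicate 2, Plvap was called, at 0.26 to 0.27. The lipid transporter Mfsd2a, which keeps transport by vesicles low, differed by -0.09 (SE 0.08, limma adjusted p = 0.563, -0.16 to -0.04 with 1 array left out).

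Around Vcam1, other adhesion molecules showed no shared direction. Of 11 endothelial leukocyte adhesion genes outside the members, 10 were tested, 5 were above 0 and 5 below, the median was 0.01 and none was called by limma (5 at an unadjusted p under 0.05). E-selectin (Sele), which like Vcam1 is induced on inflamed endothelium, was at background on each array. P-selectin (Selp) differed by -0.10 (SE 0.13, limma adjusted p = 0.696, -0.23 to -0.02 with 1 array left out), and its probe was well above background on 4 WT arrays and 1 KO array.

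The leukocyte partners of Vcam1 and Icam1 were also read. Of 11 counter-receptor genes, 9 were tested and none was called by limma (4 at an unadjusted p under 0.05), with a median of 0.01. Itga4, a subunit of the integrin that binds Vcam1, differed by -0.02 (SE 0.06, limma adjusted p = 0.847), and Itgb2, a subunit of those that bind Icam1, by -0.23 (SE 0.07, limma adjusted p = 0.0868).

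NF-kB, which induces Vcam1 and Icam1 in endothelium, was read from a list of receptors that feed it, its subunits, its targets and its inhibitors. Of 16 such genes, 8 were tested, 7 of these were above 0, the median was 0.20 and 3 were called, all higher, against 1.99% of all named genes called higher. Tnf, Il1b, Il6, Tnfrsf1b, Birc3, Ccl2, Cxcl1 and Cxcl10 were not tested. The rise of inflammatory genes was known when the list was made, so its direction is not independent evidence.

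The tumour necrosis factor receptor Tnfrsf1a rose by 0.32 (SE 0.04, limma adjusted p = 0.0105), and its other probe differed by 0.21 (limma adjusted p = 0.0427), under the minimum fold. The interleukin 1 receptor Il1r1 rose by 0.38 (SE 0.07, limma adjusted p = 0.0243), with normexp correction giving 0.19 and no call. The NF-kB subunit Relb rose by 0.33 (SE 0.05, limma adjusted p = 0.0184), and by 0.32 with its other probe. With 1 array left out, Il1r1 ranged from 0.33 to 0.40 and kept its call only without KO replicate 1, and Relb ranged from 0.31 to 0.37 and lost its call without WT replicate 1, 3 or 4 or KO replicate 2 or 4. The calls of Il1r1 and Relb also ended without the filter on dim probes, that of Il1r1 with a median shift, that of Relb with normexp (0.23), and that of Tnfrsf1a with the slide column as a block. These 3 genes, picked as the called ones, were higher in each KO sample than in any WT sample. No overlap between genotypes was found for 5 of the 8 tested genes of the list, against 21.2% of all named genes tested. Nfkb1, Nfkb2 and Tnfaip3 overlapped, the last at -0.05.

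Hypoxia response genes, some of which feed VEGF signalling, gave 12 tested of 13, none called by limma by its brightest probe (4 at an unadjusted p under 0.05), a median of -0.04 and 8 below 0. Bnip3 differed by 0.15 (SE 0.05, limma adjusted p = 0.127) by that probe and by 0.16 and 0.27 with its others, of which the last was called (limma adjusted p = 0.0341), and it is named for that call. Over all 7 lists, 12 genes passed the adjusted p with no minimum fold, and the 8 that had smaller differences went both ways. Jam2 (-0.26), Pdgfb (-0.24) and Ndrg1 (-0.24) were lower and Plvap (0.25), Abcb1a (0.24), Ptprb (0.22), Cx3cl1 (0.21) and Nfkbia (0.20) higher. They are named here because they are all the genes in that count.

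**Figure D4:**
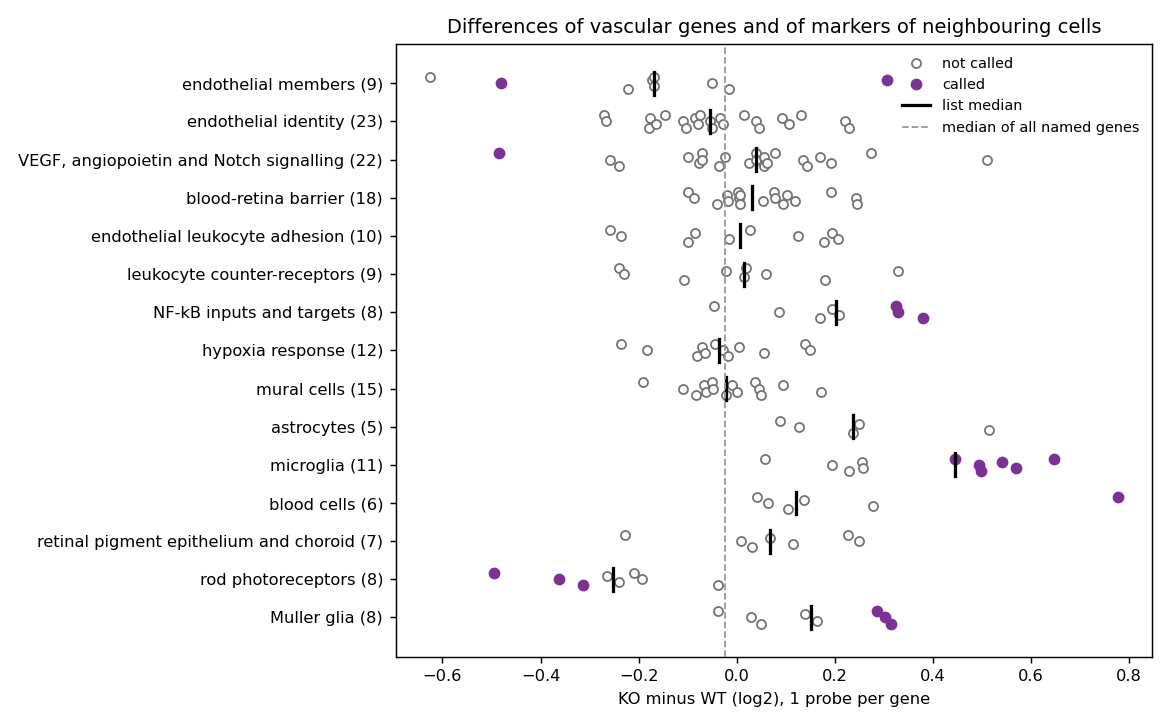
Difference between KO and WT (log2) of each tested gene by its brightest tested probe, for the endothelial members, the 7 vascular lists and 7 lists of markers of neighbouring cells, with the number of genes in brackets. Filled points were called, open points were not, black bars are list medians and the dashed line is the median of all named genes (-0.02). Endothelial identity and mural genes lie around 0, while microglial markers lie above and rod markers below it.

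Markers of the cells next to the vessels were read because their share of the RNA can move with the endothelial values. Of 16 mural cell genes (pericytes and smooth muscle), 15 were tested and none was called by limma (2 at an unadjusted p under 0.05), with a median of -0.02. The pericyte receptor Pdgfrb differed by 0.04 (SE 0.06, limma adjusted p = 0.692) and Rgs5 by -0.08 (SE 0.06, limma adjusted p = 0.421). The summed signal of the mural list, relative to the 75th percentile of each array, was 59.97 to 67.5 in WT and 56.9 to 67.4 in KO. Without Vtn the sum was 8.52 to 9.42 in WT and 8.72 to 9.13 in KO. For the endothelial identity list the sums were 42.2 to 45.7 in WT and 41.6 to 42.1 in KO, without overlap, but without Egfl7 they overlapped (29.8 to 31.8 in WT and 30.0 to 30.7 in KO). Leaving out Vtn and Egfl7 was chosen after seeing the data.

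Transcripts that mark some other cell types also differed between genotypes. By their brightest probe all 11 microglial markers lay above 0 and 6 were called higher, against 1.99% of all named genes. Their summed signal was between 11.8 and 12.8 in WT and between 15.4 and 15.8 in KO. Csf1r, the largest part of that sum, differed by 0.19 with its brightest probe and by 0.06 and -0.16 with its others. Tyrobp rose by 0.65, C1qc by 0.57 and C1qb by 0.54. Among blood cell markers, 1 of 6 tested was called higher, Cd52, at 0.78, against the same 1.99%. The other tested blood cell genes overlapped between genotypes, at 0.28 for Ptprc, 0.14 for Hbb-bt, 0.10 for Alas2, 0.06 for Hba-a1 and 0.04 for Hba-a2. The summed signal of this list also overlapped (35.8 to 47.7 in WT and 38.9 to 55.7 in KO). The 8 rod photoreceptor markers all lay below 0 and 3 were called lower, against 1.49% of all named genes, Nr2e3 at -0.50 and Sag at -0.36 among them, and their summed signal was between 1562 and 1614 in WT and between 1247 and 1398 in KO. With 1 array left out Nr2e3 ranged from -0.57 to -0.45 and kept its call only without KO replicate 1.

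Most markers of Muller glia and astrocytes, cells whose processes touch retinal vessels, lay above 0. Of 8 Muller glia markers, 7 were above 0 and 3 were called higher (Kcnj10 at 0.31, Clu at 0.30 and Apoe at 0.29), against 1.99% of all named genes, and their summed signal was between 293 and 313 in WT and between 351 and 362 in KO. Kcnj10 lost its call without KO replicate 2 (0.31) and Clu without WT replicate 2 (0.30). All 5 astrocyte markers were above 0 and none was called by limma (3 at an unadjusted p under 0.05, Gfap, S100b and Aqp4). Gfap overlapped between genotypes, and so did Pax2 (0.13, limma adjusted p = 0.686) and Pdgfra (0.09, limma adjusted p = 0.473). The sum of the list was between 5.38 and 6.55 in WT and between 6.97 and 7.43 in KO. Of 7 tested markers of the retinal pigment epithelium and choroid, whose own vessels could enter the sample, none was called by limma (1 at an unadjusted p under 0.05) and the sums overlapped (20.8 to 26.4 in WT and 20.6 to 26.5 in KO). The part of these cells in the values of Vcam1, Myct1 and Flt1 was not tested.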

How the data were processed

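Total RNA of 4 WT and 4 KO retinas was labelled with Cy3 and hybridised to Agilent SurePrint G3 mouse arrays, and the authors quantified the scans with Agilent Feature Extraction 10.7.1.1 (version from the submitters' processing notes). The deposited scanner files hold intensity on a linear scale, background-subtracted and not scaled between arrays. The authors' own table holds log2 values after a 75th percentile shift, and differed from the levels computed here by a constant of 0.12 to 0.15 per array.

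Here, log2 intensity minus the 75th percentile over 59305 non-control spots was used, without spots marked as outliers (86 to 147 per array). Symbols came from a RefSeq table (GRCm38.p6, names and upstream sequences only, since the array design is on mm9) and named 26413 probes (47.4%). Genotypes were compared over 33972 probes with lmFit and eBayes of limma 3.58.1 (R 4.3.3), without covariates and with Benjamini-Hochberg adjustment. The tested probe with the highest mean gave a gene's value. The limma step was tested on simulated data. Tables and plots were made with Python 3.11.15. The number of arrays limits the precision.

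The members and lists were chosen with earlier results of these data known. Genes named are the members, a fixed set of partners (Tek, Vegfa, Angpt2, Plvap, Mfsd2a, Pdgfrb, Rgs5, Itga4, Itgb2, Sele and Selp), called genes of each list (up to 5, or 3 for cell types) and the 5 most like the endothelial mean. Of these, 1 gene is not reported here. Members were called by their adjusted p in the fit over all probes, but no p of a member is printed, and no set test or correlation p was used. Normexp (offset 50) used median spot signals, followed by quantile normalization. The methods' t-test was unpaired with the same adjustment. All arrays shared 1 slide.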

Additional observations from a re-analysis of the deposited data

Results flagged for a closer look

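In a group of 4 arrays, a sample was set apart when its gap to the nearest of the others, as a share of the group's range, exceeded Dixon's 95% critical value. Of 82 groups of 4 tested, 3 had such a sample, and chance alone gives about 1 in 20. All 3 were WT replicate 3. Cdh5 read 0.56 there against -1.60 to -1.37 in the other WT samples. Rad54b read 0.87 against -0.53 to -0.37, and Zfp182 read 1.2 against -0.36 to -0.26. Rad54b and Zfp182 were named because they were most like an endothelial mean that held this Cdh5 value, so these 3 values are not independent of each other.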

How the results depend on the processing

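The count of called probes (992) became 661 with a median shift, 247 with no filter on dim probes, 138 at a minimum fold of 1.5, 1871 with no minimum fold and 394 with the replicate number, which is also the slide column, as a block. With the mean of a gene's probes 635 genes were called, against 519 by the value probe. Leaving out 1 array gave 388 to 1178. Of all calls, 470 were higher and 522 lower, and the split moved to 527 and 385 with quantile normalization, 562 and 370 with the 75th percentile of detected probes, 627 and 339 with cyclic loess and 419 and 278 with normexp. Called member probes (4) became 2 with no filter and with the replicate block (dim Myct1 and bright Vcam1), 2 at a minimum fold of 1.5 (dim Myct1 and dim Vcam1) and 2 to 4 with 1 array left out. Called genes of the vascular lists (4) became 2 with normexp, 1 with no filter, 0 at a minimum fold of 1.5 in limma, 12 with no minimum fold and 1 to 6 with 1 array left out. The median r of the 5 genes most like the endothelial mean (0.97) was 0.70 to 0.98 with 1 array left out and 0.25 without Cdh5, an alternative chosen after seeing the data. Whether replicate numbers pair the samples was not settled, as same-numbered WT and KO deviations correlated at 0.23, 0.06, 0.03 and 0.10 (3 WT and 4 KO samples correlated best with their own number, a hint from the data). Signs turned for 6 genes, among them Rad54b, whose value over all arrays was -0.27. Emcn was 0.00078 with a median shift, 0.0034 with the 75th percentile of detected probes and 0.020 with cyclic loess, and Itga4 was 0.0064 with normexp. With 1 array left out, the bright Kdr probe ranged from -0.11 to 0.0046, Emcn from -0.067 to 0.018, Vegfa from -0.00018 to 0.12, Pdgfrb from -0.0016 to 0.080, Itga4 from -0.060 to 0.010 and Rad54b from -0.41 to 0.056 (without WT replicate 3). Other single values kept direction. The causes were not tested.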
